A study of Homo sapiens with 13 samples.

Results

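Messenger RNA and ribosome occupancy of 10 genes of the unfolded protein response of the endoplasmic reticulum (ER) were followed in MDA-MB-231 cells, a mesenchymal triple-negative breast cancer line, treated with Silvestrol or INK128. The genes were taken by symbol: the ER chaperones HSPA5, HSP90B1, CALR, PDIA4 and DNAJB9, the stress sensors ERN1, ATF6 and EIF2AK3, the transcription factor XBP1, and HERPUD1, a component of ER-associated degradation. Each symbol had 1 entry in both deposited tables, and all 10 were among the 10588 of 24875 gene symbols of the Silvestrol experiment that passed the minimum level. That minimum was a mean of 1 RPKM (reads scaled to the length counted and to sequencing depth) in ribosome footprints (RFs) and 0.3 RPKM in mRNA.

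Silvestrol blocks the RNA helicase eIF4A, which helps ribosomes to start on structured mRNAs, and INK128 blocks the kinase activity of mTOR. The 9 libraries of the Silvestrol experiment held RFs of cells given DMSO (the vehicle) or 25 nM Silvestrol for 1 h (1 library each) or for 2 h (2 libraries each, from passages 3 and 4), RFs of untreated cells, and mRNA after 2 h of DMSO or Silvestrol. The 4 libraries of the INK128 experiment held RFs and total RNA after 2 h of DMSO or 200 nM INK128, with 1 library per group. Apart from the second pair at 2 h all libraries came from passage 3, and the labels name no engineered allele in any of them. Vehicle and drug were given in fresh medium, so for untreated cells the lack of DMSO and the lack of a medium change cannot be told apart. The labels contradict themselves in 2 places. A treatment field of the passage 3 Silvestrol 2 h RF library says 1 h, and one of the DMSO mRNA library says untreated, while their titles and descriptions say 2 h of Silvestrol and of DMSO, which were followed here. The control mRNA column carries no treatment name and was taken as DMSO because the other mRNA column names Silvestrol, and all mRNA and TE changes with Silvestrol rest on this. Counted reads ranged from 2652423 in the passage 4 Silvestrol library to 50315607 in the DMSO mRNA library. Markers of the line were present, with VIM at 4789 to 7031 RPKM and AXL at 85.7 to 162 RPKM in RFs. ESR1 was listed at 0, PGR and CDH1 did not exceed 0.109 RPKM in any library, and EPCAM lay at 3.24 to 9.94 RPKM in RFs. PTPRC, a leukocyte marker, did not exceed 0.052 RPKM, and PECAM1, an endothelial marker, had no RPKM value in RFs and at most 0.863 RPKM of mRNA.

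The unfolded protein response adjusts the folding capacity of the ER to the load of secreted and membrane proteins. Its sensors span the ER membrane. IRE1 (ERN1) cuts out a short intron of XBP1 mRNA in the cytoplasm, ATF6 is cut in the Golgi to release a transcription factor, and PERK (EIF2AK3) phosphorylates the initiation factor eIF2 and so lowers translation. The resulting factors bind ER stress elements in the promoters of chaperone and degradation genes, so that mRNA levels of HSPA5, DNAJB9 or HERPUD1 are widely used as readouts of the response.

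The IRE1 substrate itself is shown first because footprint reads summed per gene cannot tell its forms apart. The intron removed from XBP1 mRNA is 26 nt long and lies in exon 4 (GRCh37, chr22:29192115-29192140, minus strand). Without its removal the reading frame has 261 codons, and with it 376 codons. The intron is printed 5′ to 3′ in capitals, with the adjoining bases in lower case.
XBP1 intron: cgCAGCACTCAGACTACGTGCACCTCTGca
Reads counted for XBP1 can come from either form.

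ER stress elements are shown because they are the sequence feature by which several of the genes are known to be controlled. In 300-base promoter windows from RefSeq (GRCh38.p14, 250 bases before to 50 after each start, both strands), the element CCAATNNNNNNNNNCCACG (ERSE) occurred in 27 of 35116 promoters (0.077%), and 4 of the 10 genes held it: CALR, HSP90B1, HSPA5 and XBP1. The related ATTGGNCCACG (ERSE-II) occurred in 19 promoters (0.054%), among them that of HERPUD1. The core TGACGTGG, also searched, occurred in 256 promoters (0.729%) and in none of the 12 windows of the 10 genes. The letters of DNAJB9, PDIA4, ERN1, ATF6 and EIF2AK3 in this window held no match. The matches are printed on the strand that carries the motif, with its fixed letters in capitals, and the position is that of the match's first base in the gene's direction relative to the start.
CALR, -225: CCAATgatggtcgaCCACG
HSP90B1, -194: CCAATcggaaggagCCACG
HSP90B1, -89: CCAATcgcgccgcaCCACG
HSPA5, -66: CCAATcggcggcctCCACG
XBP1, -52: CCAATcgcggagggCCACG
HERPUD1, -117: ATTGGgCCACG

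In DMSO-treated cells at 2 h each of the 5 chaperones had more RFs than any of the 3 sensors within the same passage. The mean RF level of both DMSO libraries at 2 h was highest for CALR, a calcium-binding lectin chaperone (738 RPKM, above 98.8% of genes passing the minimum), followed by HSPA5, the ER Hsp70 BiP (278 RPKM), HERPUD1 (111 RPKM), PDIA4, a disulfide isomerase (99.8 RPKM), HSP90B1, the ER Hsp90 (63.3 RPKM), XBP1 (48.5 RPKM), DNAJB9, a BiP co-chaperone (38.7 RPKM), ATF6 (29.4 RPKM), EIF2AK3 (1.95 RPKM) and ERN1 (1.15 RPKM). The ranges of both passages did not overlap between CALR and HSPA5, between HSPA5 and HERPUD1, between ATF6 and EIF2AK3 or between EIF2AK3 and ERN1, whereas the other neighbours in this order overlapped. ERN1 and EIF2AK3 stood near the lower limit of the data, at the 1.03 and 5.88 percentile of RF levels, while ATF6 was at the 58.3 percentile.

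Translational efficiency (TE, the RF RPKM over the mRNA RPKM) was below the median of all genes for 9 of the 10 in DMSO-treated cells of passage 3. That median was 1.83. HSP90B1 had the lowest TE of the 10 (0.226), followed by EIF2AK3 (0.379) and CALR (0.40). HERPUD1 (1.79) and HSPA5 (1.49) were closer to the median. DNAJB9 was the exception at 3.31, with 28.02 RPKM in RFs on 8.46 RPKM of mRNA. This order depended on the library. With the passage 4 RFs over the same mRNA, a comparison added after seeing the data, 7 of the 10 were below the median (1.82), HSPA5 (3.31), HERPUD1 (2.56) and DNAJB9 (5.83) were above it, and ERN1 (0.49) was below HSP90B1 (0.63). In DMSO-treated cells of the INK128 experiment, where TE is RF FPKM over total RNA FPKM and is not on the same scale, HSP90B1 had the highest TE of the 10 (43.6) and XBP1 the lowest (6.75). The RPKM of HSP90B1 also covers a part of its coding length that differed between libraries.

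The passages differed for these genes even without drug. All 10 had more RFs in the DMSO library of passage 4 than in that of passage 3, by 2.78-fold for HSP90B1, 2.23-fold for HSPA5, 2.14-fold for CALR and 1.95-fold for PDIA4. The difference was smallest for ERN1 (1.08-fold). The median gene changed 0.988-fold, and 7 of the 10 genes but 15.2% of all genes exceeded 1.5-fold. This difference between passages was not tested. With that between the Silvestrol libraries, it enters the replicate spread of the chaperones in comparisons at 2 h that do not pair libraries by passage.

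**Figure D1:**
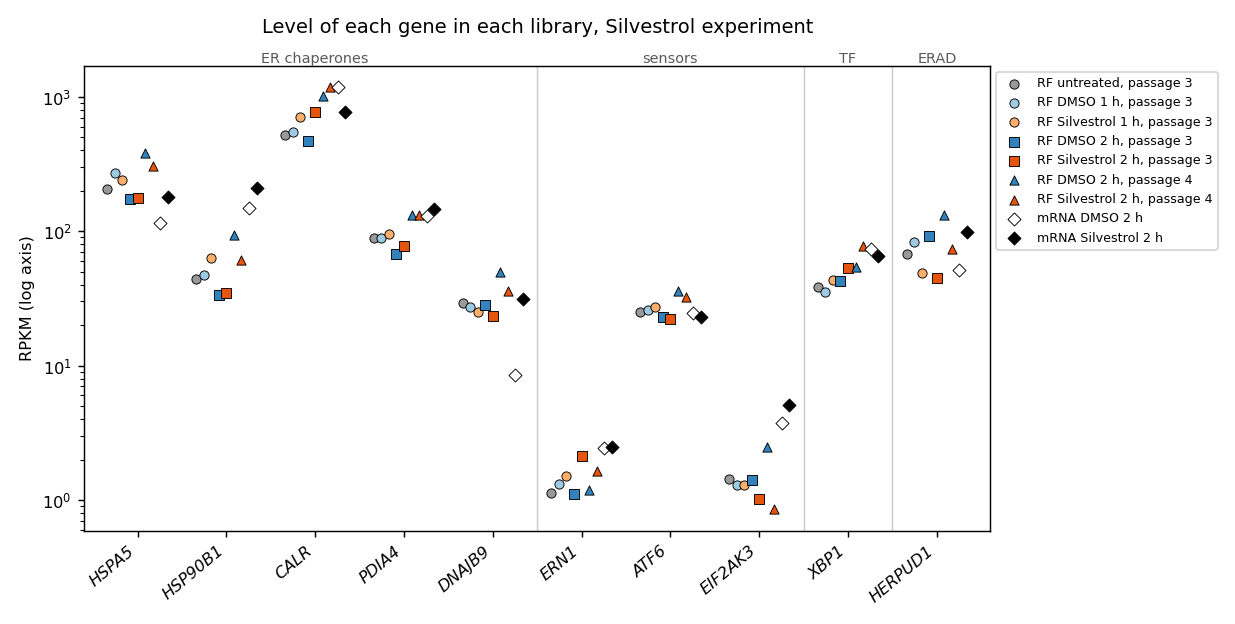
RPKM (log axis) of the 10 genes in each of the 9 libraries of the Silvestrol experiment. Symbols stand for single libraries, with circles for untreated cells and 1 h, squares for 2 h of passage 3, triangles for 2 h of passage 4 and diamonds for mRNA. Blue triangles lie above blue squares for all 10 genes, and the open and filled diamonds are farthest apart for DNAJB9.

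HERPUD1, a membrane protein of the ER degradation machinery, had fewer RFs with Silvestrol in every pair of libraries and more mRNA. At 1 h it had 83.5 RPKM in DMSO and 48.6 RPKM in Silvestrol. At 2 h it had 91.4 and 44.5 RPKM in passage 3, and 131 and 73.9 RPKM in passage 4. Both Silvestrol libraries at 2 h thus lay below both DMSO libraries, and the untreated library, at 68.1 RPKM, lay within the range of the Silvestrol libraries. The log2 RF change was -0.78 at 1 h, -1.04 at 2 h in passage 3 and -0.83 in passage 4. Relative to the median gene, HERPUD1 lay over 1.5-fold lower in all 3 pairs, as did 9.5% of all genes. By edgeR's quasi-likelihood test the log2 change at 2 h was -0.81 ± 0.26 (SE, 2 libraries per group) with a Benjamini-Hochberg adjusted p of 0.11, and with passage as a replicate block it was -0.82 ± 0.11 with an adjusted p of 4e-12. The mRNA went from 51.2 RPKM in DMSO to 97.8 RPKM in Silvestrol, a log2 change of 0.93 (95% counting interval 0.89 to 0.98) above that of 94.0% of genes. TE in passage 3 went from 1.79 to 0.455.

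DNAJB9 (ERdj4) had the largest mRNA change of the 10 genes and little change in RFs. Its mRNA was at 8.46 RPKM in DMSO (1268 reads) and 31.1 RPKM in Silvestrol (2388 reads of a library with fewer reads in all). This ratio of 3.67 was exceeded by 27 of 10588 genes. The log2 change was 1.88 (counting interval 1.78 to 1.98). RFs were at 27.3 RPKM in DMSO and 24.8 RPKM in Silvestrol at 1 h. At 2 h they were at 28.02 and 23.2 RPKM in passage 3 and at 49.3 and 36.04 RPKM in passage 4, so that the groups overlapped. The log2 RF change at 1 h was -0.14 from RPKM, 0.035 from TMM-scaled counts and 0.049 relative to the median gene, so that its sign depended on the scaling. The edgeR log2 RF change was -0.27 ± 0.33 (adjusted p = 0.61), and with the replicate block -0.22 ± 0.16 (adjusted p = 0.26). The unblocked change was -0.62 without the passage 3 DMSO library and 0.12 without that of passage 4. TE in passage 3 went from 3.31 to 0.746.

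CALR had more RFs and less mRNA with Silvestrol. Its RFs were at 549 RPKM in DMSO and 708 RPKM in Silvestrol at 1 h, at 471 and 769 RPKM at 2 h in passage 3, and at 1005 and 1185 RPKM in passage 4. Silvestrol libraries were higher in all 3 pairs, but the passage 3 Silvestrol library lay below the passage 4 DMSO library. The edgeR log2 change was 0.53 ± 0.37 (adjusted p = 0.37), and with the replicate block 0.60 ± 0.081 (adjusted p = 2.1e-12). Without the block the change depended on single libraries. It was 0.11 ± 0.24 without the passage 3 DMSO library (edgeR adjusted p = 0.79), 0.22 ± 0.40 without the passage 4 Silvestrol library (adjusted p = 0.80) and 1.14 ± 0.24 without the passage 4 DMSO library (adjusted p = 0.026). In each of these fits 1 group has 1 library, which is assumed to vary like the pair of the other group. The mRNA was at 1176 RPKM in DMSO and 768 RPKM in Silvestrol, a log2 change of -0.62 (counting interval -0.63 to -0.60). TE in passage 3 went from 0.40 to 1.00.

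The other chaperones followed neither pattern closely. HSPA5 had 272 RPKM in DMSO and 242 RPKM in Silvestrol at 1 h, 172 and 176 RPKM at 2 h in passage 3, and 384 and 304 RPKM in passage 4. HSP90B1 had 47.2 and 62.9 RPKM at 1 h, 33.5 and 34.8 RPKM at 2 h in passage 3, and 93.2 and 61.2 RPKM in passage 4. The log2 change of HSPA5 at 1 h was -0.17 from RPKM, 0.12 from TMM-scaled counts and 0.017 relative to the median gene, so that its sign depended on the scaling. In both RPKM and relative to the median gene, neither HSPA5 nor HSP90B1 had the same sign in all 3 pairs. PDIA4 had 88.6 and 96.0 RPKM at 1 h, 67.6 and 78.1 RPKM at 2 h in passage 3, and 132 RPKM in both libraries of passage 4. Their mRNA was higher with Silvestrol, at 116 and 179 RPKM for HSPA5, 148 and 208 RPKM for HSP90B1 and 130 and 146 RPKM for PDIA4. Values of HSPA5 and HSP90B1 depended on how the authors' RPKM was made. Positions with non-unique reads are left out of it, and the length implied by reads over RPKM was 19.9 to 41.7% of the annotated coding length for HSPA5 and 49.2 to 89.0% for HSP90B1 over the 7 RF libraries, against 115 to 145% for the other 8 genes. This length takes the depth as the sum of counted reads, which need not be the total the authors used, so its percentages are not absolute. For HSPA5 this length, relative to the median gene, was 1.13 times as large in Silvestrol as in DMSO in passage 3 and 1.40 times in passage 4. With the replicate block, the read counts gave HSPA5 a log2 change of 0.32 ± 0.11 (edgeR adjusted p = 0.0062), and an added offset for this length, chosen after seeing the data, gave -0.01 ± 0.11 (adjusted p = 0.96). The same offset moved HSP90B1 from 0.16 (adjusted p = 0.26) to -0.12 (adjusted p = 0.45). Leaving out the passage 3 DMSO or the passage 4 Silvestrol library turned the unblocked log2 change of HSPA5 (0.29) to -0.24 and -0.48, that of HSP90B1 (0.05) to -0.54 and -0.62, and that of PDIA4 (0.20) to -0.19 and -0.18.

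Among the sensors, ERN1 had more and EIF2AK3 fewer RFs at 2 h, both on few reads, and ATF6 lay near its controls. ERN1 RFs were at 1.11 RPKM in DMSO and 2.14 RPKM in Silvestrol in passage 3, and at 1.19 and 1.65 RPKM in passage 4, where they rested on 29 and 17 reads. Both Silvestrol libraries were above both DMSO libraries, while the 1 h pair stood at 1.31 and 1.504 RPKM and the mRNA at 2.43 and 2.50 RPKM. The log2 change at 2 h was 0.89 ± 0.33 (edgeR adjusted p = 0.14), and with the replicate block 0.94 ± 0.29 (adjusted p = 0.0031). EIF2AK3 RFs went from 1.41 to 1.01 RPKM in passage 3 and from 2.48 to 0.85 RPKM in passage 4, the last on 10 reads. At 1 h EIF2AK3 was at 1.28 RPKM in both libraries. Its mRNA went from 3.72 to 5.07 RPKM. The edgeR log2 change at 2 h was -0.86 ± 0.39 (adjusted p = 0.21), and with the replicate block -0.67 ± 0.29 (adjusted p = 0.038). With the 1 h pair added to the block it was -0.28 ± 0.24 (adjusted p = 0.34), and without the block and the passage 4 DMSO library it was -0.46 (adjusted p = 0.51). ATF6 RFs were at 22.9 and 22.1 RPKM in passage 3 and at 35.99 and 32.2 RPKM in passage 4, and its mRNA at 24.8 and 23.0 RPKM. The blocked log2 change of ATF6 was 0.03 ± 0.13 (edgeR adjusted p = 0.87).

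XBP1, whose spliced form encodes the transcription factor downstream of IRE1, had more RFs with Silvestrol in all 3 pairs. It stood at 35.0 and 43.0 RPKM at 1 h, 42.8 and 53.5 RPKM at 2 h in passage 3, and 54.2 and 77.3 RPKM in passage 4, with overlapping groups at 2 h. The log2 change was 0.56 ± 0.23 (edgeR adjusted p = 0.17), and with the replicate block 0.55 ± 0.12 (adjusted p = 4.4e-05). Without the block and the passage 4 Silvestrol library it was 0.295 (adjusted p = 0.64). Its mRNA went from 73.0 to 65.5 RPKM.

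**Figure D2:**
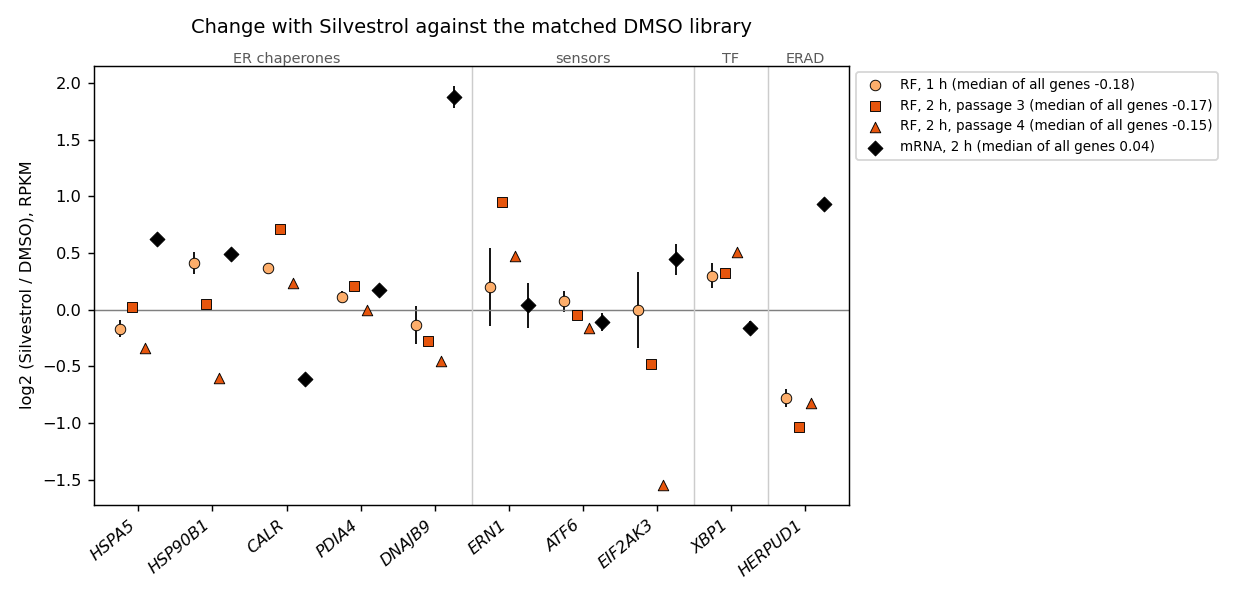
Change of each gene with Silvestrol against the matched DMSO library, as log2 of the RPKM ratio. Circles are RFs at 1 h, squares and triangles are RFs at 2 h in passages 3 and 4, and diamonds are mRNA at 2 h, with bars for 95% counting intervals where 1 pair was measured (some are smaller than the symbol). HERPUD1 RFs lie at -0.78, -1.04 and -0.83, and the DNAJB9 mRNA lies at 1.88.

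Read against all genes, the 10 genes gave the following counts. In edgeR's quasi-likelihood test of RFs at 2 h, 0 of 10 passed an adjusted p of 0.05 in either direction, 2 (ERN1 and HERPUD1) had an unadjusted p under 0.05, and DESeq2 also called 0 of them. At an unadjusted p under 0.05, 18.6% of all genes had fewer and 12.3% more RFs, and DESeq2 called 1002 and 552 genes. Over all genes 7.58% were called with fewer RFs and 2.13% with more, and none without either Silvestrol library, where 1180 and 1279 genes had fewer and 430 and 655 had more RFs at the same unadjusted limit. The labels give the passage of each library and the deviations of the passages correlated across genes (r = 0.717 over 10588 genes), so the block is the paired form of the same comparison. The block leaves 1 degree of freedom per gene, so its p-values rest largely on a spread pooled over all genes. With the block, 2 of 10 (HERPUD1 and EIF2AK3) had fewer RFs and 5 of 10 (HSPA5, CALR, PDIA4, ERN1 and XBP1) had more, against 28% and 24.6% of all genes. Both Silvestrol libraries lay below both DMSO libraries in RPKM for 2 of 10 (HERPUD1 and EIF2AK3) and above them for 1 (ERN1), against 40% and 20.3% of all genes. RF changes lay above the median gene in all 3 pairs for 4 of 10 (CALR, PDIA4, ERN1 and XBP1), close to the 35.3% of all genes. At 1 h, 1 gene (HERPUD1) was over 1.5-fold below the median gene and 1 (HSP90B1, 0.60 above it on the log2 scale) over 1.5-fold above, against 14.1% and 5.12% of all genes. For mRNA, 2 of 10 (DNAJB9 and HERPUD1) were over 1.5-fold above the median gene and 1 (CALR) was over 1.5-fold below, against 16.3% and 13.7%.

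**Figure D3:**
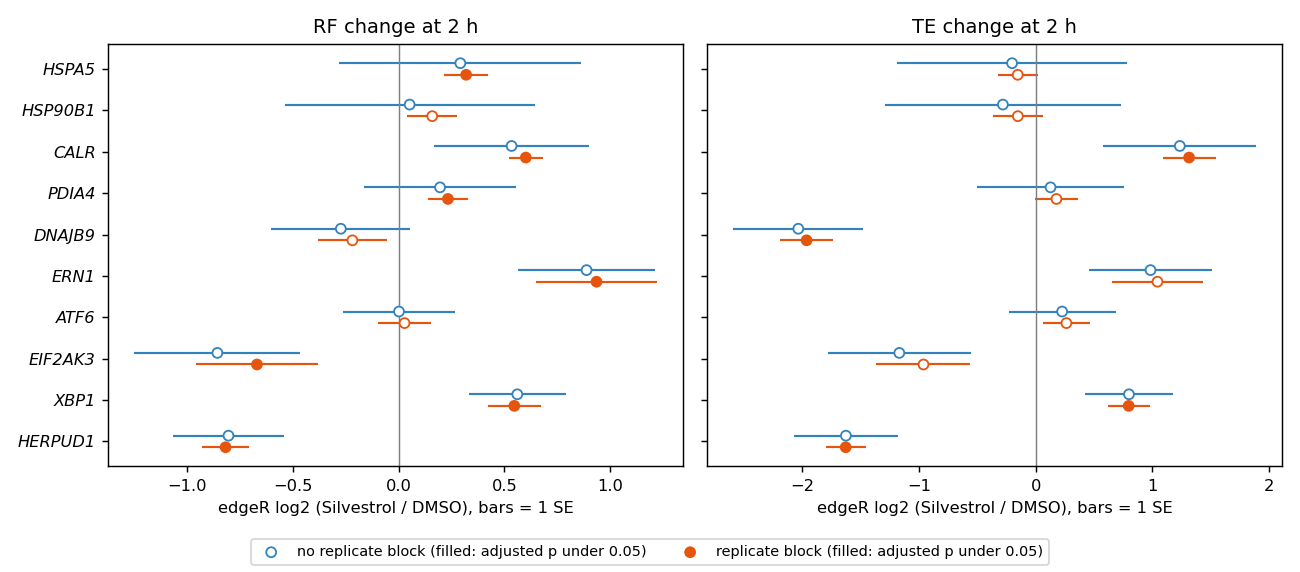
edgeR log2 changes of RFs (left) and of TE (right) with Silvestrol at 2 h for the 10 genes, without (blue) and with (orange) passage as a replicate block. Bars are 1 SE, and filled points have an adjusted p under 0.05. No blue point is filled, and the orange bars are shorter for every gene.

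TE combined both readouts. The interaction of drug and library type in edgeR gave a log2 TE change of -2.03 ± 0.56 (adjusted p = 0.12) for DNAJB9, -1.62 ± 0.45 (adjusted p = 0.12) for HERPUD1, 1.23 ± 0.65 (adjusted p = 0.31) for CALR and 0.80 ± 0.38 (adjusted p = 0.27) for XBP1. Without the block 0 of 10 genes passed, 2 (DNAJB9 and HERPUD1) had an unadjusted p under 0.05, and 0.0189% and 0% of all genes were called with lower and higher TE. At an unadjusted p under 0.05, 1495 genes had lower and 1075 higher TE. DESeq2 called 518 genes with lower and 362 with higher TE. It called DNAJB9 (adjusted p = 0.029) and HERPUD1 (adjusted p = 0.033) with lower TE. So did edgeR without the passage 3 DMSO library (adjusted p = 0.0018 and 0.0054) and without that of passage 4 (adjusted p = 0.046 and 0.048), and the latter fit also called CALR with higher TE (1.82, adjusted p = 0.027). Both of these fits have 1 DMSO library of RFs and take the spread from the Silvestrol pair alone, so they are no separate support. Leaving out the passage 3 or the passage 4 Silvestrol library instead gave adjusted p of 0.37 and 0.30 for DNAJB9 and of 0.37 and 0.29 for HERPUD1. With the replicate block in edgeR, DNAJB9 (-1.96 ± 0.23, adjusted p = 0.00013) and HERPUD1 (-1.63 ± 0.17, adjusted p = 7.7e-05) had lower TE, and CALR (1.31 ± 0.23, adjusted p = 0.0010) and XBP1 (0.80 ± 0.18, adjusted p = 0.0047) had higher TE, against 21.8% and 21.9% of all genes. ERN1 (1.04 ± 0.39, adjusted p = 0.051) and EIF2AK3 (-0.96 ± 0.40, adjusted p = 0.074) missed the threshold. In all of these fits the mRNA side rests on 1 library per treatment, whose own replicate spread is unknown.

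The study read TE changes as z-scores. A z-score of the TE change with a limit of 1.5 was computed from the passage 3 RPKM values over all genes, here on the log2 scale. The genes scored here are those past the minimum and not the study's own set, so the scores and the calls can differ from the study's. The mean log2 TE change was -0.319 with an SD of 0.985. DNAJB9 (-1.86) and HERPUD1 (-1.68) were below -1.5, as were 6.63% of all genes, and CALR (1.67) was above 1.5, as were 4.82%. With the RFs of passage 4 over the same mRNA, DNAJB9 had -2.11 and HERPUD1 -1.52, whereas CALR had 1.199. EIF2AK3 went from -0.61 to -1.76 between the passages, and the remaining genes stayed within the limit in both. DNAJB9 and HERPUD1 combined mRNA over 1.5-fold above the median gene with a z-score below -1.5, as did 3.76% of all genes. The mRNA change is part of the z-score, so these are not separate criteria.

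**Figure D4:**
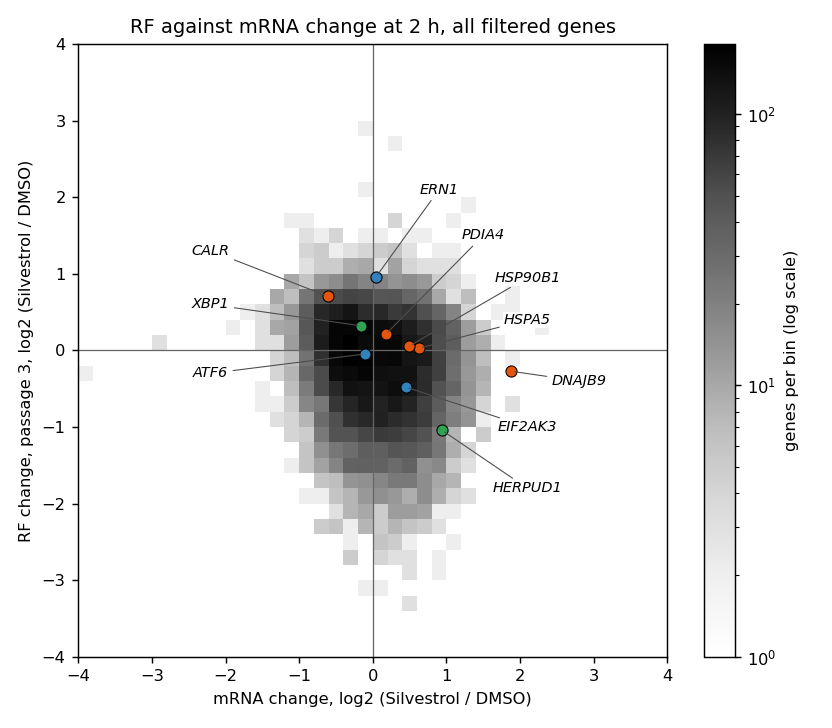
RF change in passage 3 against mRNA change at 2 h of Silvestrol, both as log2 ratios of RPKM, for 10588 genes in bins of shading and for the 10 genes as points (orange for chaperones, blue for sensors, green for XBP1 and HERPUD1). DNAJB9 lies at an mRNA change of 1.88 and an RF change of -0.27, outside the dense part of the cloud, and HERPUD1 and CALR lie in opposite corners.

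The changes of chaperones and sensors overlapped. The median log2 RF change at 2 h was 0.20 over the 5 chaperones (from -0.27 for DNAJB9 to 0.53 for CALR) and 0.00 over the 3 sensors (from -0.86 for EIF2AK3 to 0.89 for ERN1), beside -0.02 over all genes. The difference of the medians, 0.19, became 0.10 from the RPKM of passage 3 and -0.18 from that of passage 4, and was 0.04 at 1 h. For mRNA the medians were 0.49 for chaperones and 0.04 for sensors, beside 0.04 over all genes, and the chaperones ranged from -0.62 (CALR) to 1.88 (DNAJB9).

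Annotated 5′ UTRs (GENCODE 44 on GRCh37) were taken from 1 chosen transcript per gene. They ranged from 41 nt for ATF6 to 240 nt for DNAJB9, beside a median of 134 nt over 9141 genes. Other annotated transcripts had 5′ UTRs of up to 1031 nt for EIF2AK3 and 790 nt for ERN1, and of 0 nt for EIF2AK3 and HERPUD1. The values given here therefore hold for the chosen transcripts only. HERPUD1 had 103 nt and CALR had 71 nt. The predicted folding energy was lowest for DNAJB9 (-110 kcal/mol) and highest for ATF6 (-12.8 kcal/mol), beside a median of -52.3 kcal/mol. HERPUD1 (-37.4 kcal/mol) and CALR (-25.2 kcal/mol) were both above that median. GC content ranged from 41.5% for ATF6 to 77.8% for XBP1, beside a median of 67.7%. An ATG upstream of the start codon was found in EIF2AK3 only, against 38.7% of all genes. Of the genes with a promoter element printed above, HERPUD1, HSPA5 and HSP90B1 had log2 mRNA changes of 0.93, 0.63 and 0.49, and XBP1 and CALR had -0.16 and -0.62. Of the genes without a match, DNAJB9 had 1.88, EIF2AK3 0.45, PDIA4 0.17, ERN1 0.04 and ATF6 -0.11. A relation of the 5′ UTR features or of the promoter elements to the changes was not tested.

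Genes of the wider pathway were described by 4 lists. Of 24 further ER chaperones and folding enzymes, all past the minimum, 0 were called without the block (1 with fewer and 1 with more RFs at an unadjusted p under 0.05, beside 18.6% and 12.3% of all genes), and 3 had fewer and 12 more RFs with it, beside 28% and 24.6% of all genes. DESeq2 without the block called DNAJB11 with fewer RFs, beside 1002 of all 10588 genes. The list's median log2 RF change was 0.24, beside -0.02 over all genes. The mRNA of 3 of the 24 was over 1.5-fold above the median gene and that of 1 was below, beside 16.3% and 13.7% of all genes. By edgeR with the block, those with the largest changes were DNAJB11, a BiP co-chaperone (-0.96, adjusted p = 4e-10), MANF, a secreted ER stress protein (-0.68, adjusted p = 3.1e-08), and ERO1L, an ER oxidase (-0.65, adjusted p = 7.4e-07), on the lower side. On the higher side they were TXNDC5 (0.73, adjusted p = 4.3e-14) and P4HB (0.70, adjusted p = 7.3e-14), both disulfide isomerases, and GANAB, a glucosidase subunit (0.66, adjusted p = 6.9e-13). Like HERPUD1, DNAJB11 had fewer RFs and more mRNA, with mRNA at 22.3 RPKM in DMSO and 46.3 RPKM in Silvestrol and RFs at 33.8 and 18.2 RPKM in passage 3. Like CALR, GANAB had more RFs and less mRNA, with mRNA at 227 and 126 RPKM and RFs at 97.3 and 152 RPKM.

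Of 22 genes of ER-associated degradation, 21 passed the minimum, 0 were called without the block by edgeR or DESeq2 (3 with fewer and 0 with more RFs at an unadjusted p under 0.05, beside 18.6% and 12.3% of all genes), and 5 had fewer and 3 more RFs with it (median log2 change 0.04), beside 28% and 24.6% of all genes. SEL1L (-0.49, adjusted p = 0.00094) and UBE2J1 (-0.63, adjusted p = 1.6e-05) were lower by edgeR with the block. SYVN1 (0.61, adjusted p = 3.1e-05), SELS (0.53, adjusted p = 0.0006) and DERL2 (0.52, adjusted p = 0.00056) were higher. SEL1L and SYVN1 form a ligase complex with HERPUD1, and their blocked changes had opposite signs. No mRNA of this list was over 1.5-fold from the median gene.

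Of 15 genes for sensor processing and downstream factors, 14 passed the minimum, and the median log2 RF change was -0.44. The mRNA of 4 of the 14 was over 1.5-fold above the median gene and that of 0 was below, beside 16.3% and 13.7% of all genes. Without the block CREB3L1, an ER-anchored transcription factor related to ATF6, had fewer RFs (-1.30 ± 0.23, edgeR adjusted p = 0.033), going from 44.3 to 13.0 RPKM in passage 3 and from 42.7 to 19.8 RPKM in passage 4, with mRNA at 38.03 and 35.1 RPKM. Over all genes 7.58% were called with fewer RFs in this fit. At an unadjusted p under 0.05, 6 had fewer and 2 more RFs, beside 18.6% and 12.3% of all genes. DESeq2 called 2 with fewer, CREB3L1 and PPP1R15B, beside 1002 of all 10588 genes. With the block 8 had fewer and 2 more, beside 28% and 24.6% of all genes, the latter being TRAF2, an adaptor of IRE1 (0.60, adjusted p = 8.4e-07), and PPP1R15A, the inducible eIF2 phosphatase subunit (0.47, adjusted p = 0.00034). DDIT3 and ATF4, factors downstream of PERK, and PPP1R15B were named after their values were seen. DDIT3 (CHOP) mRNA went from 39.1 to 98.0 RPKM, while its RFs went from 42.8 to 16.1 RPKM in passage 3 and from 31.6 to 17.6 RPKM in passage 4. By edgeR its log2 RF change was -1.03 (adjusted p = 0.073) without the block and -1.09 (adjusted p = 4.6e-07) with it. PPP1R15B, the constitutive phosphatase subunit, had mRNA at 13.1 and 22.3 RPKM and RFs at 26.9 and 13.4 RPKM in passage 3. ATF4 mRNA went from 98.5 to 163 RPKM, and its RFs were low, at 0.75 to 2.94 RPKM over the 7 libraries. They went from 1.27 to 2.88 RPKM in passage 3 and from 2.555 to 1.72 RPKM in passage 4, so the passages differed in direction (blocked log2 change 1.12, edgeR adjusted p = 0.072).

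All 18 genes of the ER translocon and signal peptide processing passed the minimum, with a median log2 RF change of 0.24. SEC61B, a translocon subunit, had more RFs without the block (1.00 ± 0.17, edgeR adjusted p = 0.033), at 192 and 343 RPKM in passage 3 and 160 and 278 RPKM in passage 4, with mRNA at 127 and 121 RPKM. Over all genes 2.13% were called with more RFs in this fit. DESeq2 called SEC61B as well, beside 552 of all 10588 genes. At an unadjusted p under 0.05, 2 of the list had more and 0 fewer RFs, beside 12.3% and 18.6% of all genes. With the block 2 had fewer RFs, TRAM1 (-0.44, adjusted p = 0.003) and SEC63 (-0.42, adjusted p = 0.03), and 8 had more, beside 28% and 24.6% of all genes. The mRNA of 6 of the 18 was over 1.5-fold above the median gene and that of 2 was below, beside 16.3% and 13.7% of all genes.

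INK128 was measured in the same line in 1 library per group, without a test. Over the 7102 genes past the minimum the median log2 change was 0.01 in RFs and -1.17 in total RNA, so changes are given relative to these medians. DNAJB9, ERN1 and EIF2AK3 fell below the minimum of 0.3 FPKM in total RNA, and their values, set against the medians of the genes past it, rest on that low level. RFs of HERPUD1 went from 35.8 FPKM (fragments scaled to length and depth) in DMSO to 45.5 FPKM in INK128, and its total RNA from 2.13 to 1.61 FPKM. DNAJB9 RFs went from 8.12 to 11.7 FPKM and its total RNA from 0.298 to 0.254 FPKM. Relative to the median gene, total RNA was higher by 0.77 for HERPUD1 and by 0.94 for DNAJB9 on the log2 scale. They were the only genes of the 10 over 1.5-fold above the median in total RNA, as were 7.97% of all genes, and none of the 10 was over 1.5-fold below it (2.42% of all genes).

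In RFs with INK128, none of the 10 genes was over 1.5-fold above (3.83% of all genes) or below (3.62% of all genes) the median gene. HSPA5 went from 383 to 446 FPKM, HSP90B1 from 379 to 474 FPKM, CALR from 951 to 997 FPKM and PDIA4 from 131 to 150 FPKM. ERN1 went from 1.86 to 2.35 FPKM, ATF6 from 6.88 to 7.42 FPKM and EIF2AK3 from 2.99 to 3.77 FPKM. XBP1 went from 23.2 to 19.5 FPKM. The order of levels in DMSO was again led by CALR and closed by EIF2AK3 and ERN1. The z-scores of the TE change with INK128 ran from -0.73 for HERPUD1 and -0.72 for DNAJB9 to 0.68 for ERN1, all within the limit of 1.5. With the median and the scaled median absolute deviation in place of mean and SD, HERPUD1 had -1.489 and DNAJB9 -1.479, just inside the limit. HERPUD1 thus had fewer RFs than the matched DMSO library in every Silvestrol pair and more in the INK128 pair. The difference between the drugs was not tested, because the INK128 table holds neither counts nor replicates and was normalized separately.

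**Figure D5:**
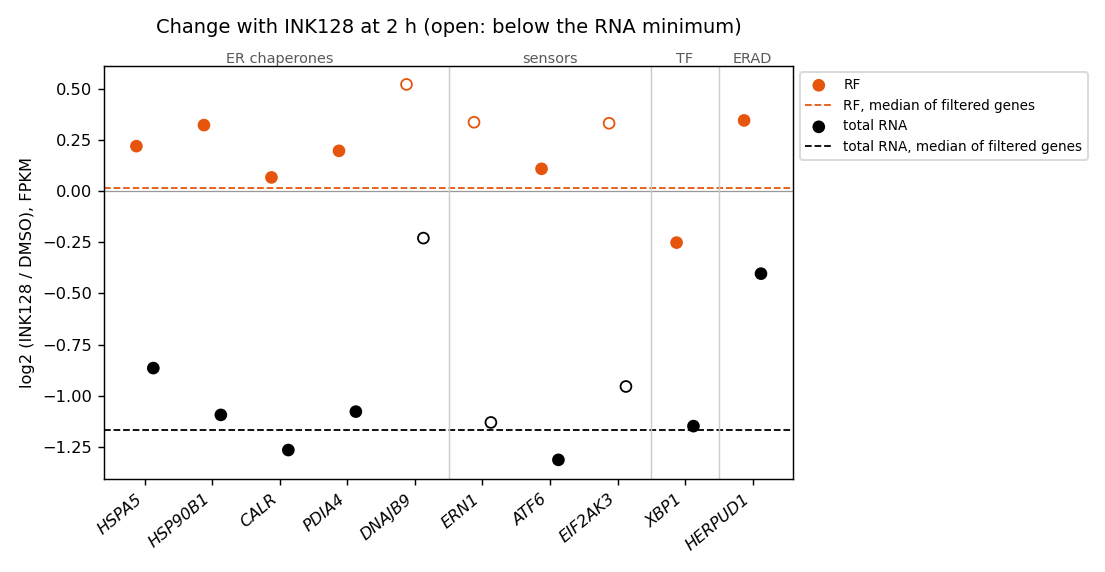
Change of RFs (orange) and total RNA (black) with INK128 at 2 h, as log2 of the FPKM ratio in 1 pair of libraries each. Dashed lines are the medians of the 7102 genes past the minimum (0.01 and -1.17), and open symbols are genes below the RNA minimum. DNAJB9 and HERPUD1 stand highest above the dashed line of total RNA.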

How the data were processed

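Processed tables of 13 libraries (RFs, mRNA and total RNA of MDA-MB-231 cells) were used; reads were not. For Silvestrol, the authors aligned reads with Bowtie to hg19 and UCSC KnownGene canonical transcripts (GEO's processing notes name Bowtie2 and CASAVA 1.8.1) and deposited, for each transcript, counts of reads that mapped uniquely. The authors also deposited RPKM values, which leave out positions with non-unique reads or under several transcripts. For INK128, the authors deposited FPKM values; the program that made them is not given in the sources used here. Deposited columns of means, TE, log2 changes and z-scores hold the study's own comparisons and were not used.

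The 38897 lines held 25758 distinct entries, and the entry with the highest RF level was kept for each symbol. Of these, 10588 genes had values above 0 and reached the minimum. RF counts at 2 h (2 DMSO, 2 Silvestrol libraries) were tested with edgeR 4.0.16 (TMM, quasi-likelihood, Benjamini-Hochberg), without and with passage as a block, which the labels give. TE was tested as the interaction of drug and library type over 6 libraries. DESeq2 1.42.0 was an alternative. Only the edgeR fits without the block were tested on simulated data. Those data gave both passages the same means, so they do not show how the fits behave when passages differ. The replicates are passages of one line, so p-values measure only the spread between them. With the block 1 degree of freedom per gene is left, so that spread is largely pooled over genes and not each gene's own. Comparisons with 1 library per group (1 h, mRNA, INK128) have no test; their 95% exact binomial intervals cover counting error only, and counts past 1.5-fold are relative to the median gene. Folding energies came from RNAfold 2.7.2. The 10 genes, the 4 lists and the motifs were chosen with earlier results of these data known. Of each list, up to 3 genes per direction were named, those with the largest change among genes called without the block or, failing that, with it. One gene that this rule names is not reported here. Alternatives were other scaling, filters, pseudocounts, left-out libraries, a length offset, and untreated cells as control.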

Additional observations from a re-analysis of the deposited data

Results flagged for a closer look

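In RPKM ratios not centred on the median gene, 2 genes differed in sign between 1 h and both passages at 2 h of Silvestrol, and the difference was not tested. ATF6 had log2 RF changes of 0.07 at 1 h and of -0.05 and -0.16 at 2 h, a difference of 0.18 between 1 h and the mean of 2 h. Relative to the median gene ATF6 had 0.26, 0.13 and -0.01, so that it did not differ in sign in both passages. EIF2AK3 had 0.00 at 1 h and -0.48 and -1.54 at 2 h, a difference of 1.01, with 10 reads in the passage 4 Silvestrol library. Both 1 h libraries stood at 1.28 RPKM for EIF2AK3, so that the sign at 1 h carries no information.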

How the results depend on the processing

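Passage as a replicate block gave 2965 genes with fewer and 2607 with more RFs at 2 h and 2312 and 2314 genes with lower and higher TE, in place of 803, 226, 2 and 0 without it. Of the 10 genes it called 2 with fewer and 5 with more RFs, and 2 with lower and 2 with higher TE, in place of 0 each. The counted length offset with the block, added after seeing the data, gave 2935 and 2528 genes and 2 and 4 of the 10, and the 6 libraries of 1 h and 2 h with a block of pairs gave 2575 and 2608 genes and 1 and 6 of the 10, with HSP90B1 gained and EIF2AK3 lost. DESeq2 called 552 genes with more RFs, 518 with lower TE (2 of the 10) and 362 with higher TE. Without a filter, 166 genes had lower and 18 higher TE. Why these counts differ was not tested.

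Leaving out 1 library, with the lone library of its group assumed to vary like the other pair, gave 0 to 923 genes with fewer and 0 to 257 with more RFs (0 to 1 of the 10), and 0 to 807 genes with lower (0 to 2 of the 10) and 0 to 505 with higher TE (0 to 1 of the 10). The zeros came without either Silvestrol library, where 939 and 934 genes had lower and 445 and 680 higher TE at an unadjusted p under 0.05. Log2 RF changes then ranged from -0.48 to 1.11 for HSPA5, -0.62 to 0.99 for HSP90B1, -0.19 to 0.70 for PDIA4, -0.62 to 0.12 for DNAJB9 and -0.27 to 0.31 for ATF6. Log2 TE changes ranged from -0.91 to 0.61 for HSPA5, -0.89 to 0.65 for HSP90B1, -0.27 to 0.62 for PDIA4 and -0.056 to 0.51 for ATF6. The length offset gave HSPA5 -0.076 (-0.007 with the block) and HSP90B1 -0.26 (-0.12 with the block). ATF6 (0.00) became -0.021 at a minimum of 5 RPKM and -0.008 without a filter. HERPUD1, CALR and XBP1 kept the sign of their RF and TE changes at 2 h of Silvestrol in every edgeR and DESeq2 alternative, as did ERN1 and EIF2AK3 where they could be fitted, but their sizes moved when 1 library was left out. RF changes ranged from -1.15 to -0.535 for HERPUD1, 0.11 to 1.14 for CALR, 0.295 to 0.77 for XBP1, 0.58 to 1.07 for ERN1 and -1.19 to -0.46 for EIF2AK3, and TE changes from -1.92 to -1.36, 0.80 to 1.82, 0.58 to 1.00, 0.64 to 1.19 and -1.51 to -0.80.

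At a z-score limit of 2, 0 of the 10 were below or above it with the passage 3 RFs, whereas DNAJB9 was below it with the RFs of passage 4 (-2.11) or a pseudocount of 0.5 (-2.02). CALR also dropped out, leaving 0 above 1.5, with the RFs of passage 4 and without a minimum. At 1 h, untreated cells as control left 0 of the 10 over 1.5-fold below the median gene and 3 above, and a pseudocount of 0.5 or TMM-scaled counts left 0 above. The chaperone median minus the sensor median was -0.18 from passage 4 and -0.51 for the z-score. ERN1 and EIF2AK3 could not be fitted at a minimum of 5, and their lowest RF counts, 17 and 10 reads, limit what can be read from them.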
